A study of Bos taurus with 8 samples.

Results

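The acute phase and pathogen-sensing genes examined here are PTX3, HP, LBP, C3, TLR2, TLR4, MYD88, NFKBIA, S100A8 and S100A9. All 10 were present on the array, by the rule that a probe set (a group of short probes for 1 transcript) belongs to a gene if the platform annotation gives it that symbol and no other. They had 13 probe sets, 3 for C3, 2 for S100A9 and 1 for each of the other 8 genes, among 9155 genes with a symbol of their own. The samples were biopsies of lactating mammary gland of Holstein cows (Bos taurus). Full gland was sampled 12 h after milk removal, which the labels also call milk stasis, and empty gland at 0 h, when milk had just been removed. Each of 4 cows gave 1 full and 1 empty sample, every animal was lactating, and the comparison was made within cows. Both states were sampled in the same animals, so age is matched within a pair. The labels do not give the order of the biopsies or the gland of the udder each came from, and these cannot be told apart from the state.

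Acute phase proteins are made in quantity when infection or injury is sensed. The liver is the main source of haptoglobin and LBP, and the mammary gland can also make some of them. Toll-like receptors bind microbial molecules and, through the adaptor MYD88, free NF-kappaB from its inhibitor, the product of NFKBIA. In the udder this pathway is known for its part in mastitis, where S100A8 and S100A9 can arrive with neutrophils.

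All values are log2 levels as normalized by the authors with RMA, and a difference of 1 is a 2-fold change. Array medians lay between 7.08 and 7.24. The milk protein transcripts CSN2, LALBA and PAEP were between 13.77 and 14.43 in all 8 libraries, so the defining products of the labelled tissue were present. In cows 2 and 4 the library of the full gland was unlike the others, with median correlations across probe sets to the other arrays of 0.9690 and 0.9753, against 0.9856 to 0.9868 for the remaining 6. The control for RNA integrity, the gap between 3' and 5' probe sets for gapd, was 3.31 in the full library of cow 2 and 1.53 to 2.13 in the other 7. The same gap for the actin control, annotated as ACTA1, was 1.36 in the full library of cow 4 and -0.07 to 0.07 in the other 7. The level of its 3' probe set was 7.93 in that library and 5.91 to 6.19 in the others. Those 7 levels are near the first quartile of the arrays (5.98 to 6.03), so the actin gap says little about RNA integrity there. The gapd gap of the full library of cow 4 was 1.71.

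No acute phase or pathogen-sensing gene passed the test between full and empty gland. In limma with cow as a block, 0 of the 13 probe sets passed an adjusted p of 0.05, beside 0 of all 24016 probe sets (0%), and each of the 13 had an adjusted p of 0.993. At an unadjusted p of 0.05 the count was again 0 of 13, while 600 of all probe sets (2.50%) were under it. By mean difference 6 probe sets were higher and 7 lower in full gland. Over the 10 genes, each taken by its brightest probe set, the median difference was 0.0052, against -0.0036 over all genes. For none of the 13 did the 4 full libraries lie wholly above or below the 4 empty ones, which was the case for 0.812% of all probe sets (0.396% above and 0.416% below).

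**Figure D1:**
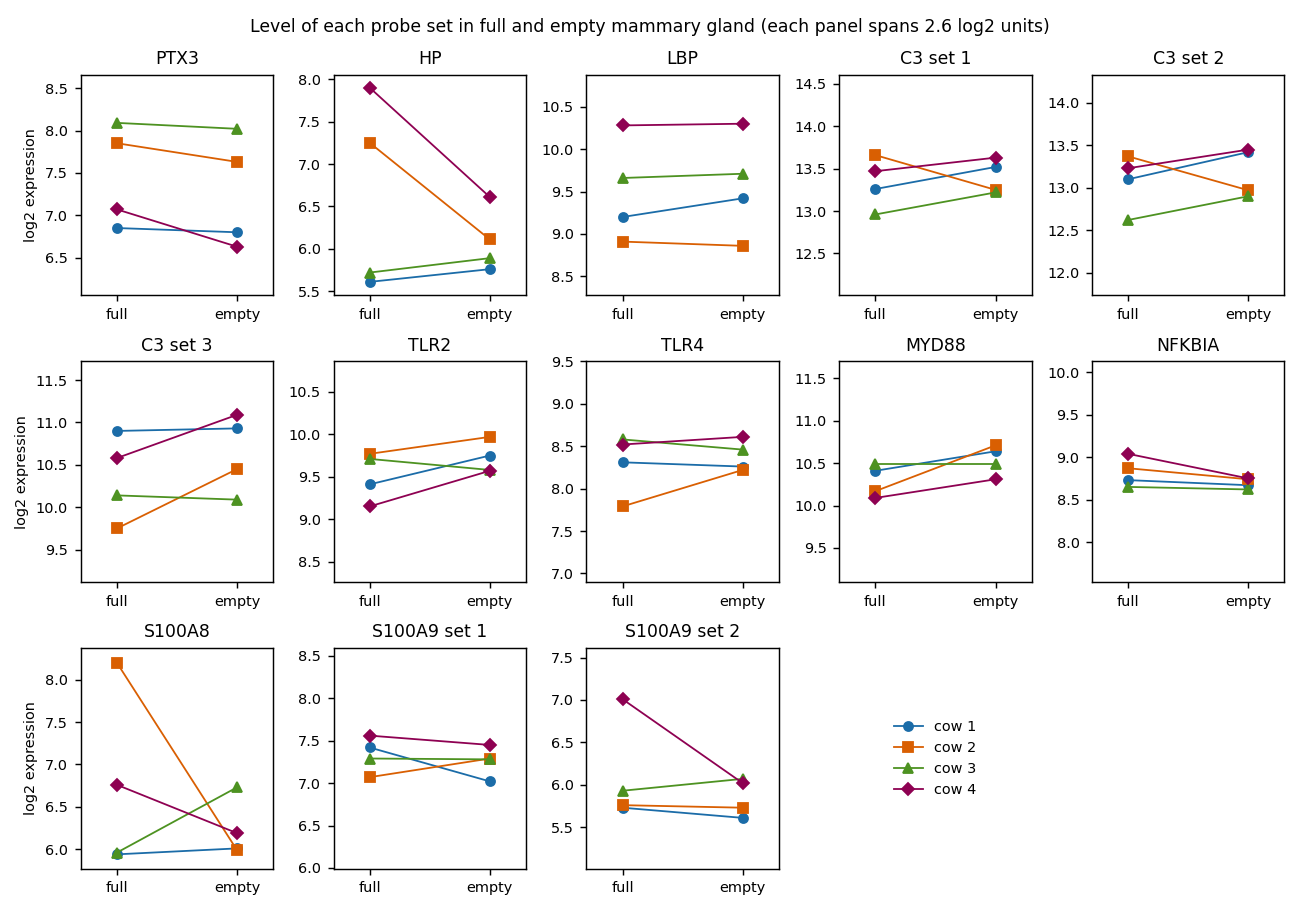
Log2 expression of the 13 probe sets, with the full sample of each cow on the left and the empty sample on the right, joined by a line per cow; numbered sets of C3 and S100A9 run from the brightest down. HP and S100A8 are higher in full than in empty gland of cows 2 and 4, while the lines of LBP lie at a different height for each cow and those of PTX3 lie higher in cows 2 and 3 than in cows 1 and 4.

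Haptoglobin, the product of HP, binds free haemoglobin and is a major acute phase protein of cattle. HP was at 5.61, 7.25, 5.72 and 7.90 in the full gland of cows 1 to 4, against 5.76, 6.11, 5.89 and 6.61 in their empty gland. The full glands of cows 2 and 4 were thus above every other library, and those of cows 1 and 3 were below every empty one. Within cows the difference was 1.14 in cow 2 (2.20-fold) and 1.29 in cow 4 (2.44-fold), but -0.15 in cow 1 and -0.17 in cow 3. A difference above 1 was seen for 1.29% of all probe sets in cow 2 and 1.10% in cow 4, and HP ranked 186th highest of 24016 in cow 2 and 92nd in cow 4. The mean difference was 0.53 ± 0.29 (limma's moderated SE, n = 4 cows), with a 95% interval of -0.19 to 1.25. Without cows 2 and 4 it was -0.16. HP is a dim probe set, with a mean level above that of 34.1% of all probe sets.

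PTX3, the long pentraxin that coats microbes and is made by stromal and myeloid cells, was 1 of the genes with the same direction in every cow. Its level was 6.85, 7.85, 8.09 and 7.07 in full gland of cows 1 to 4, against 6.80, 7.63, 8.02 and 6.63 in empty gland. The groups overlapped almost completely, because the cows differed from each other by more than full differed from empty. The mean difference was 0.20 ± 0.09 (SE, n = 4 cows; limma adjusted p = 0.993), and it was 0.06 without cows 2 and 4.

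LBP carries bacterial lipopolysaccharide to CD14 and TLR4. It was at 9.20, 8.91, 9.66 and 10.28 in full gland of cows 1 to 4, against 9.42, 8.86, 9.71 and 10.30 in empty gland. The order of the cows was the same in both states. The difference between states was -0.06 ± 0.07 (SE, n = 4 cows), with a 95% interval of -0.25 to 0.12, so that a mean change of 2-fold either way lies outside the interval.

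C3 is the central protein of complement, whose cleavage marks microbes for uptake. Its brightest probe set was at 13.26, 13.66, 12.96 and 13.47 in full gland of cows 1 to 4, against 13.52, 13.25, 13.22 and 13.63 in empty gland. It was lower in full gland of cows 1, 3 and 4 and higher in cow 2, with a mean difference of -0.07 ± 0.13 (SE, n = 4 cows). The next brightest followed it closely, with within-cow differences of -0.32, 0.40, -0.29 and -0.21.

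The dimmest of the 3 C3 probe sets went the other way in the cow with the largest change. It was at 10.90, 9.75, 10.14 and 10.58 in full gland of cows 1 to 4, against 10.93, 10.45, 10.09 and 11.09 in empty gland. In cow 2 it differed by -0.71, where the brightest set differed by 0.42. The gap between these sets was 3.92 in the full library of cow 2 and 2.35 to 3.13 in the other 7. That library also had the widest gapd gap, as given above, and the part of RNA integrity in the C3 values was not tested beyond a fit with the gapd gap as a covariate. In that fit the 3 differences were -0.12, -0.16 and -0.26, from the brightest set to the dimmest. Without cows 2 and 4 they were -0.26, -0.31 and 0.0096. The positions of the probe sets along the transcript were not analysed here.

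**Figure D2:**
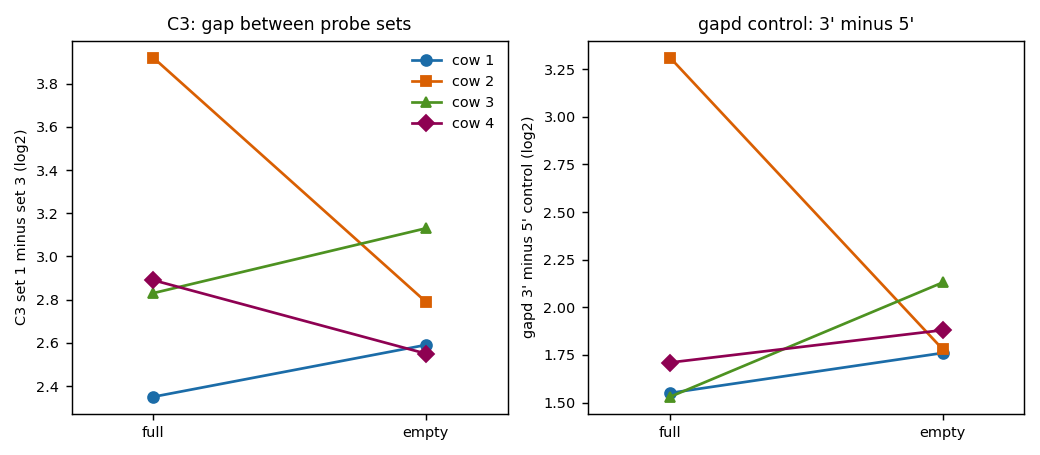
The left panel shows the log2 gap between the brightest and the dimmest C3 probe set, and the right panel the log2 gap between the 3' and 5' control probe sets for gapd, with full on the left, empty on the right and a line per cow. The full library of cow 2 is the highest point in both panels, at 3.92 and 3.31.

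The pathogen receptors were lower on average in full gland, by less than their spread between cows. TLR2, the receptor for bacterial lipoproteins, was at 9.41, 9.77, 9.71 and 9.15 in full gland of cows 1 to 4, against 9.75, 9.97, 9.58 and 9.57 in empty gland. It was lower in cows 1, 2 and 4 and higher in cow 3, with a mean difference of -0.21 ± 0.11 (SE, n = 4 cows). TLR4, the receptor for lipopolysaccharide, was at 8.31, 7.79, 8.58 and 8.52 in full gland, against 8.26, 8.22, 8.46 and 8.61 in empty gland. The full gland of cow 2 was the lowest of the 8 TLR4 values, and the other 3 cows differed by 0.13 or less. Its mean difference was -0.09 ± 0.11 (SE, n = 4 cows) and turned to 0.03 without cow 2.

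MYD88, the adaptor that most Toll-like receptors and the interleukin-1 receptor share, had the smallest unadjusted p of the 13 probe sets. It was at 10.41, 10.17, 10.49 and 10.09 in full gland of cows 1 to 4, against 10.64, 10.71, 10.49 and 10.31 in empty gland. Cows 1, 2 and 4 were lower in full gland, and in cow 3 the states differed by 0.01. The mean difference was -0.24 ± 0.10 (SE, n = 4 cows), with a 95% interval of -0.49 to 0.01 and a limma adjusted p of 0.993 (unadjusted p = 0.0556). It was -0.15 without cow 2.

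NFKBIA encodes the inhibitor that holds NF-kappaB in the cytoplasm, and it is itself a target of that factor. Its level was 8.73, 8.87, 8.65 and 9.04 in full gland of cows 1 to 4, against 8.67, 8.74, 8.62 and 8.75 in empty gland. It was higher in full gland of every cow, by 0.06, 0.13, 0.03 and 0.29. The mean difference of 0.13 ± 0.08 (SE, n = 4 cows) had a 95% interval of -0.06 to 0.31, and it was 0.07 without cow 4. NFKBIA had the narrowest range of the 13 probe sets, 0.41 over the 8 arrays.

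PTX3 and NFKBIA were the 2 probe sets of the 13 (15.4%) that were higher in all 4 cows, against 4.22% of all probe sets, and none was lower in all 4, against 5.97%. These 2 kept that direction after each array was centred on its median and after repeated quantile normalization. MYD88 joined as lower in all cows after median centring, and LBP after repeated quantile normalization.

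**Figure D3:**
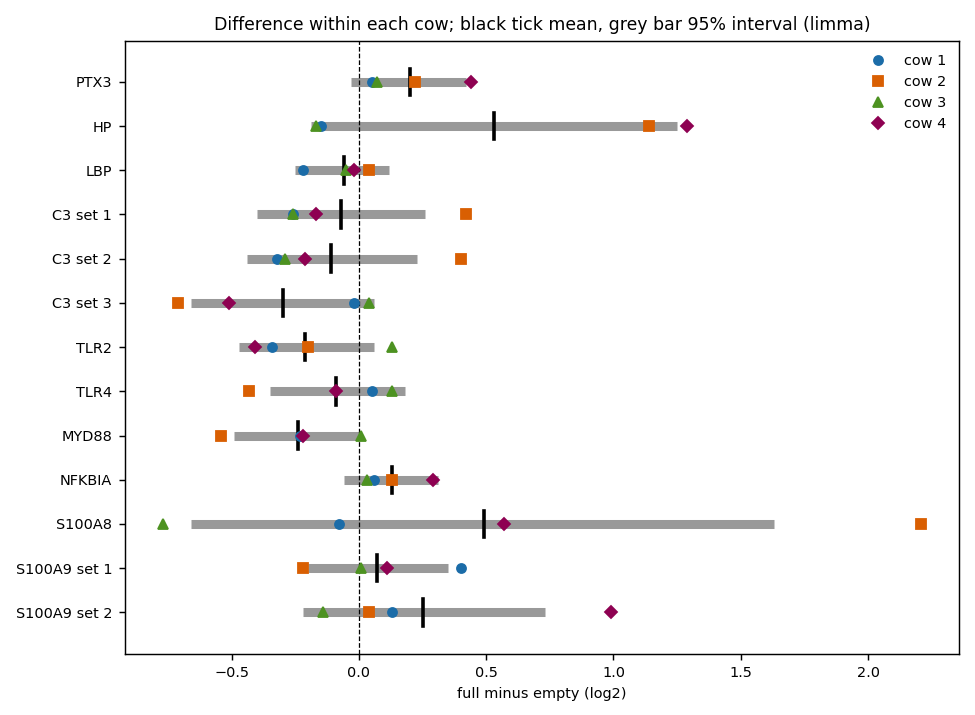
Full minus empty log2 difference of each probe set in cows 1 to 4 (symbols), with the mean over cows as a black tick and limma's 95% interval as a grey bar. Every interval includes 0, and those of HP and S100A8 are the widest.

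S100A8 and S100A9 form calprotectin, a metal-binding complex that is abundant in neutrophils and starves microbes of zinc and manganese. RefSeq places their genes on the same chromosome of ARS-UCD2.0 with 1 gene, S100A12, between them. S100A8 was at 5.94, 8.20, 5.96 and 6.76 in full gland of cows 1 to 4, against 6.01, 5.99, 6.73 and 6.19 in empty gland. The full gland of cow 2 stood far above the rest, and among empty glands that of cow 3 was the highest. In cow 2 the difference was 2.21 (4.64-fold), the 13th highest of all 24016 probe sets there. In cow 3 it was -0.77, the 13th lowest in that cow. S100A8 is a dim probe set, with a mean level above that of 36.7% of all probe sets. Its 5.96 in the full gland of cow 3 is near the first quartile of the arrays (5.98 to 6.03). The mean difference was 0.49 ± 0.46 (SE, n = 4 cows), with a 95% interval of -0.66 to 1.63. It was -0.09 without cow 2, -0.42 without cows 2 and 4, and 0.30 with the gapd gap as a covariate.

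The S100A9 probe sets did not follow S100A8 in cow 2. The dimmer one was at 5.73, 5.76, 5.93 and 7.01 in full gland of cows 1 to 4, against 5.61, 5.73, 6.07 and 6.02 in empty gland. Only the full gland of cow 4 lay outside a narrow band, 0.99 above its empty gland, and the mean difference of 0.25 ± 0.19 (SE, n = 4 cows) was 0.0077 without cow 4. The brighter one was at 7.42, 7.07, 7.29 and 7.56 in full gland, against 7.02, 7.29, 7.28 and 7.45 in empty gland. Its largest difference, 0.40, was in cow 1, and in cow 4 it differed by 0.11, so the 2 probe sets of this gene disagreed about which cow changed. S100A12, named here after its values were seen, was at 7.18, 7.70, 8.09 and 9.74 in full gland of cows 1 to 4, against 7.93, 7.81, 8.83 and 8.20 in empty gland. It shared with S100A8 a lower value in full gland of cow 3 (-0.74) and with the dimmer S100A9 set a higher value in cow 4 (1.55), but in cow 2 it differed by -0.12. The mean difference of S100A12 was -0.01 ± 0.39 (SE, n = 4 cows).

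LBP and PTX3 differed between the animals. An F-test of the cow terms in the same limma fit asks whether the mean of a cow's full and empty values differs among these 4 animals. LBP averaged 9.31, 8.88, 9.68 and 10.29 in cows 1 to 4, a span of 1.41 (2.65-fold), while full and empty of a cow differed by 0.22 at most (limma adjusted p = 0.0301). Its neighbours in the order, cows 4, 3, 1 and 2, were each further apart than that. PTX3 averaged 6.83, 7.74, 8.05 and 6.85, a span of 1.23 (2.34-fold), with within-cow differences of up to 0.44 (limma adjusted p = 0.0435). PTX3 thus separated cows 2 and 3 from cows 1 and 4, and within each of these pairs the averages differed by less than full and empty of a cow could. The 2 calls, 15.4% of the 13 probe sets, stand beside 105 calls among all probe sets (0.437%). At an unadjusted p of 0.05 the F-test took 5 of the 13 (38.5%), against 14.8% of all probe sets. When any 1 cow was left out, so that 3 animals were compared, neither gene passed: the limma adjusted p lay between 0.0583 and 0.226 for LBP and between 0.0513 and 0.286 for PTX3. Between cows 1 and 3 alone the limma adjusted p was 0.000894 for PTX3 and 0.0618 for LBP. That fit rests on 2 pairs and called 1820 probe sets, against 105 with all 4 cows. It compares only a cow with a low PTX3 average (6.83) and 1 with a high average (8.05), so it says little about the 4 animals. The lowest values among the other 11 probe sets were those of the dimmest C3 set (adjusted p = 0.232) and HP (adjusted p = 0.289). HP averaged 7.25 in cow 4 and 5.68 in cow 1, but its full and empty values differed by up to 1.29 within a cow.

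Other genes of the same pathways were described from 7 lists. No gene of any list passed between full and empty gland or between cows in limma. Among Toll-like receptors and co-receptors, 6 of 15 genes were measured, 3 higher and 3 lower, with a median of -0.0048. CD14, which hands lipopolysaccharide to TLR4, was at 10.48, 9.97, 11.09 and 10.47 in full gland of cows 1 to 4, against 10.68, 10.94, 11.08 and 10.71 in empty gland, a mean difference of -0.35 ± 0.17 (SE, n = 4 cows) that was -0.14 without cow 2. Like MYD88, it was lowest against its own empty gland in cow 2 and nearly equal in cow 3. TLR3, the receptor for double-stranded RNA, differed by 0.34 ± 0.22, with 0.99 in cow 2 and 0.67 in cow 4 against -0.09 and -0.20 in cows 1 and 3.

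Downstream of the receptors, 12 of 17 adaptors and kinases were measured, 4 higher and 8 lower, with a median of -0.02. TOLLIP, which dampens signalling from these receptors, differed by -0.22 ± 0.11 (SE, n = 4 cows), and TICAM2, a bridging adaptor of TLR4, by 0.12 ± 0.07 with a higher value in all 4 cows. Of the NF-kappaB subunits, kinases and inhibitors, 12 of 15 were measured, 8 higher and 4 lower, with a median of 0.04. RELA, the main activating subunit, differed by -0.16 ± 0.11 (-0.04 without cow 2), and CYLD, a deubiquitinase that restrains the pathway, by 0.08 ± 0.07. The 12 genes had medians of -0.10, 0.22, -0.05 and 0.10 in cows 1 to 4. Their sign went by cow, as did that of the median over all genes (-0.05, 0.03, -0.02 and 0.02).

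Other acute phase proteins showed little movement as a group, with 18 of 22 measured, 12 higher, 6 lower and a median of 0.03. FGG, the fibrinogen gamma chain, differed by -0.40 ± 0.17 (SE, n = 4 cows), and by -0.23 without cow 2 and -0.02 without cows 2 and 4. ALB, serum albumin, differed by 0.29 ± 0.13, and by 0.02 without cows 2 and 4. SAA3, the serum amyloid A form made in the mammary gland, is named here after its values were seen. It was at 9.18, 11.25, 8.39 and 13.08 in full gland of cows 1 to 4, against 10.06, 9.87, 8.37 and 11.75 in empty gland. Like HP, it was higher in full gland of cow 2 (1.38) and cow 4 (1.33), while it was lower in cow 1 (-0.89) and nearly equal in cow 3 (0.02). Its mean difference was 0.46 ± 0.40, which was 0.15 without cow 2, 0.17 without cow 4 and -0.43 without both.

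The complement list and the other S100 proteins had the largest medians of the 7 lists over the 4 cows. Without cow 4 they were -0.0066 for complement and 0.04 for the S100 proteins, and without cows 2 and 4 they were -0.15 and -0.10. Of complement components and regulators 21 of 25 were measured, 15 higher and 6 lower, with a median of 0.14, which was 0.85 in cow 4 and -0.24 in cow 1. CFI, the protease that inactivates cleaved C3, was at 6.73, 9.11, 6.59 and 9.71 in full gland of cows 1 to 4, against 7.08, 7.63, 6.58 and 7.78 in empty gland. Its mean difference was 0.77 ± 0.40 (SE, n = 4 cows), made up of 1.48 in cow 2 and 1.93 in cow 4 against -0.35 and 0.01 in cows 1 and 3, and that of CLU, the chaperone clusterin, was 0.44 ± 0.25 (0.22 without cow 2 and 0.27 without cow 4). Of the other S100 proteins 12 of 16 were measured, 10 higher and 2 lower, with a median of 0.22, which was 0.76 in cow 4 and -0.20 in cow 1. S100A13 differed by 0.43 ± 0.19, and by 0.24 without cow 2 and 0.02 without cows 2 and 4. S100A4 differed by 0.32 ± 0.21, and by 0.05 without cow 4. Antimicrobial and milk defence proteins, with 15 of 19 measured, had 6 higher and 9 lower and a median of -0.02. LPO, the milk peroxidase, was lower in full gland of all 4 cows, by a mean of -0.42 ± 0.14, which was -0.27 without cow 4 and -0.14 without cows 2 and 4. PIGR, which carries immunoglobulin A into milk, differed by -0.17 ± 0.09, and by -0.10 without cow 2 and -0.004 without cows 2 and 4.

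No marker of the 9 cell type lists passed between full and empty gland. Positive medians in cows 2 and 4 and negative ones in cows 1 and 3 were seen in 5 of the lists. The median over all 9155 genes had the same signs, at -0.05, 0.03, -0.02 and 0.02 in cows 1 to 4, so the signs alone are not particular to these lists. In tissue RNA, more cells of a type and more RNA per cell cannot be told apart. Monocyte and macrophage markers, 8 of 10 measured, had within-cow medians of -0.26, 0.13, -0.15 and 0.77 in cows 1 to 4, with mean levels of 7.86 to 8.71 in full gland and 8.01 to 8.52 in empty gland. Fibroblast markers, 9 of 9 measured, had medians of -0.31, 0.20, -0.09 and 0.90, with mean levels of 10.15 to 11.24 in full gland and 10.25 to 10.66 in empty gland. Myoepithelial markers, 8 of 9 measured, had medians of -0.02, 0.30, -0.15 and 0.58. T and natural killer cell markers and B and plasma cell markers, given with the remaining lists, had the same signs. HP, SAA3 and CFI were higher in the same cows, 2 and 4, in which these 5 lists and all genes together had a positive median. The widest gapd gap was in the full library of cow 2. It was 1.71 in that of cow 4, inside the range of 1.53 to 2.13 given above. The actin gap was widest in the full library of cow 4, the only one where the 3' actin level was not dim. With the gapd gap as a covariate the mean differences were 0.46 for HP, 0.37 for SAA3 and 0.68 for CFI. As the gap was 3.31 in the full library of cow 2, the covariate mostly marks that library. The part of RNA integrity in those values was not tested beyond that fit. The part of cell composition was not tested.

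Neutrophil markers were mostly dim, and none passed. The 8 of 13 that were measured had a mean level of 5.94 ± 0.09 in full gland, from 5.87 to 6.08, and 5.94 ± 0.04 in empty gland (SD, n = 4 each), near the 25th percentile of all probe sets, which lay between 5.98 and 6.03 on the arrays. Their medians were 0.0092, -0.10, -0.02 and 0.04 in cows 1 to 4, so in cow 2, where S100A8 was 4.64-fold higher, the list was slightly lower. In cow 4 S100A8, the dimmer S100A9 set and S100A12 were higher in full gland. Of the 8 markers, 4 were higher there and the rest were not. The 3 above 0.3 were MMP9 (0.95), FCGR3A (0.39) and CXCR1 (0.36), named here after their values were seen. The share of all probe sets above 0.3 in cow 4 was not counted, and 1.10% were above 1. Differences near 0.3 were frequent in that cow. The difference of 0.32 for CFP, a gene of the complement list, ranked only 3437th highest of 24016 there. The part of neutrophils in the S100 values was not tested. RMA levels have no true zero, so no marker can be listed as at 0. Luminal epithelial markers, all 11 measured, had medians of 0.02, 0.10, 0.0095 and 0.03. The medians of T and natural killer cell markers (10 of 11 measured) were 0.34 in cow 2 and 0.41 in cow 4, those of B and plasma cell markers (6 of 8) 0.03 and 0.34, those of endothelial markers (7 of 8) -0.42 and 0.06, and those of adipocyte markers (4 of 6) -0.04 and -0.05.

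**Figure D4:**
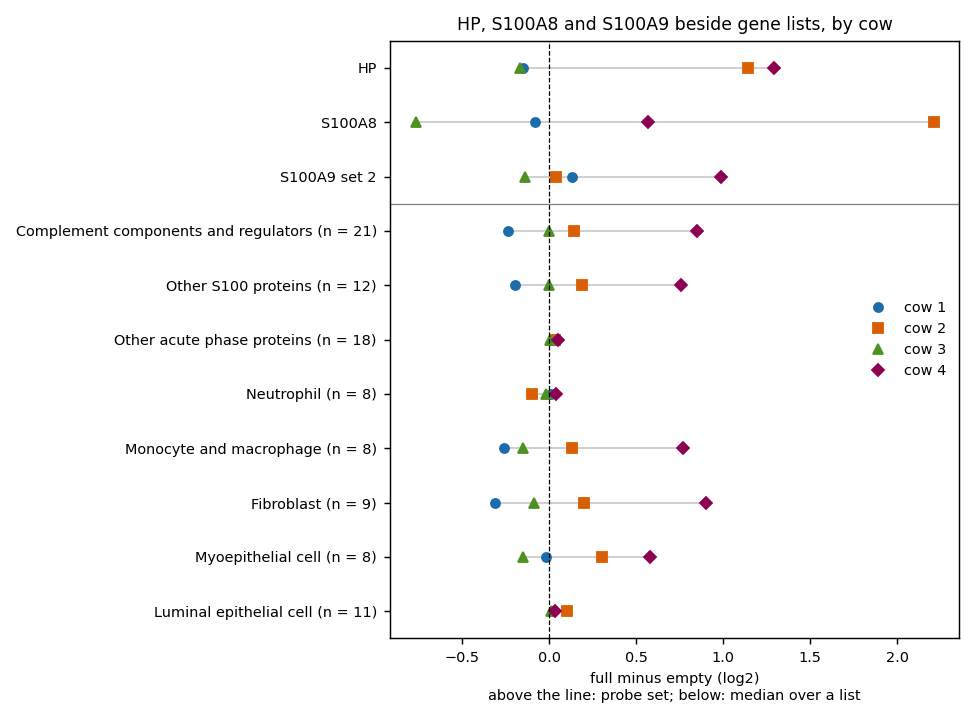
Full minus empty log2 difference by cow for HP, S100A8 and the dimmer S100A9 probe set (above the line), and the median over the measured genes of 8 lists (below it). HP is high in cows 2 and 4, S100A8 mainly in cow 2 and S100A9 in cow 4, while the median of the neutrophil list stays between -0.10 and 0.04.

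The 3 genes with the widest range over the arrays were HP (2.29), S100A8 (2.27) and PTX3 (1.46), and for each the genes with the most similar profile were looked up. Likeness was measured as the root mean square distance over the 8 arrays after each gene's mean was subtracted. Features that the nearest genes share with a gene on these arrays therefore follow from how they were picked. For HP the nearest were PRICKLE1, a planar polarity gene (0.19), KRT7, a keratin of simple epithelia (0.19), and FN1, the matrix protein fibronectin (0.21), against a distance of 0.78 from a flat profile. For S100A8 they were RGL1 (0.23), PLK2, a stress-induced kinase (0.26), and CACNB1, a calcium channel subunit (0.26), against 0.73. By that choice these 3 shared the high value in the full library of cow 2, the one with the widest gapd gap. They were 1.71, 1.71 and 1.57 above the empty gland there. For PTX3 the nearest were CBR4 (0.20), GSDMB (0.30) and JAKMIP1 (0.31), against 0.56, and CBR4, like PTX3, was higher in cows 2 and 3 than in cows 1 and 4 in both states.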

How the data were processed

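RNA of 8 biopsies (4 cows, full and empty) was measured on 8 single-colour bovine arrays. Values were deposited by the authors as log2 levels from RMA, per the submitters' processing notes. No source used here gives the RMA version, and the log2 scale was read from the values. RMA equalises the distributions of the arrays, which hides any shift common to most genes. Per the labels' protocols, RNA was primed from an oligo(dT) primer, which makes 5' probe sets sensitive to breakage. Arrays carry no read depth, and their number limits the precision.

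Of 24128 probe sets, 112 platform controls were left out and 24016 tested; 13292 had 1 symbol, 86 several and 10638 none. Symbols of the 13 probe sets matched RefSeq of ARS-UCD2.0 by gene number in all 13 cases. A gene in a list was represented by its brightest probe set.

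The test was the two-sided moderated test of limma 3.58.1 (R 4.3.3), fitted with lmFit and eBayes, with state and cow as fixed terms, 3 residual and 2.81 prior degrees of freedom, and Benjamini-Hochberg adjustment over all 24016 probe sets. Pairs were taken from the descriptions, which number the cow of every sample. Deviations from group means correlated at 0.319 to 0.597 within cows and at -0.031 or below between them. Subtracting group means pushes the correlations between cows to negative values. That each pair is 1 animal thus rests on the descriptions, not on these correlations. The fit was tested on simulated data. Tables used pandas 2.3.3 and numpy 2.4.6.

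The genes, the 7 process lists and the 9 cell type lists were chosen with earlier results of these data known. The text names every probe set of the 10 genes, the 2 genes of each process list with the smallest unadjusted p (no list gene passed between cows), and the 3 nearest genes of the 3 members with the widest range, passing over placeholder symbols. Alternatives were cow left out of the model or as a random block, arrays centred on their medians or quantile-normalized again, brighter probe sets, an intensity trend with robust prior, array weights, each cow left out, cows 2 and 4 left out and other thresholds. The gapd covariate was added after seeing the data.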

Additional observations from a re-analysis of the deposited data

Results flagged for a closer look

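In 4 of 71 sets of 4 values, 1 sample lay further from the nearest other one, relative to the range, than Dixon's 95% critical value, where chance gives about 1 set in 20. The brightest and the next brightest C3 probe set differed by 0.42 and 0.40 between full and empty gland of cow 2, against negative differences in the other 3 cows. The dimmer S100A9 probe set was at 7.01 in the full gland of cow 4, against 5.73 to 5.93 in the other full glands. S100A13 was at 8.80 in the empty gland of cow 3, below the other 3 empty glands at 9.12 to 9.15.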

How the results depend on the processing

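No alternative called any of the 13 probe sets between full and empty gland, and no replicate block, that is cow left out of the model, also gave 0 of 24016; over 166 values of the 13 probe sets the adjusted p lay between 0.514 and 1. Leaving out 1 cow leaves 3 pairs, and leaving out cows 2 and 4 leaves 2. Such fits rest on few pairs, and a lack of calls between states there says little. Without cows 2 and 4 the median over the 10 genes was -0.11, and it was -0.03 to 0.05 with 1 cow left out. Of the 13 probe sets, 9 shared a direction without both cows (4 higher, 5 lower) and 2 to 6 without 1. Fewer cows make this more frequent in general. Of all probe sets, 23.9% were higher and 31.2% lower in both remaining cows. With 1 cow left out, 7.87% to 13.7% were higher and 10.9% to 12.4% lower in all 3. The mean turned without both cows for HP (-0.16), the dimmest C3 set (0.0096), TLR4 (0.09), S100A8 (-0.42), the dimmer S100A9 set (-0.0067), TLR3 (-0.14), RELA (0.0097), CFI (-0.17), CLU (-0.15) and SAA3 (-0.43). List medians turned as well without both for complement (-0.15), other S100 proteins (-0.10), NF-kappaB genes (-0.04), Toll-like receptors (0.03) and other acute phase proteins (-0.0054). Among cell type lists they turned for monocyte and macrophage (-0.23), T and natural killer cell (-0.12) and B and plasma cell markers (-0.08). They also turned for fibroblast (-0.21) and myoepithelial markers (-0.10), and the remaining cell type lists kept their sign. With array weights the mean turned for TLR4 (0.02) and S100A8 (-0.07). With 1 cow left out the range was -0.16 to 0.03 for TLR4, -0.09 to 0.90 for S100A8, -0.04 to 0.17 for the brighter S100A9 set and -0.53 to 0.23 for S100A12. The cause of these turns was not tested. Probe sets that differed between cows numbered 255 at an adjusted p of 0.10, 208 after median centring, 248 with an intensity trend and robust prior, 286 with array weights, 1820 between cows 1 and 3 alone and 13 to 131 with 1 cow left out, against 105. Of the 13 probe sets, 0 remained called in each fit that left out 1 cow and so compared fewer animals, while 3 were called between cows 1 and 3 (PTX3 and the dimmer C3 sets). HP, S100A8 and the dimmer S100A9 set lie in the dimmer part of the array and were not tested among the brighter probe sets.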
